A study of Medicago sativa with 6 samples.

Results

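A set of 65 alfalfa genes was high in flower buds and in stem and low in the other 4 tissues of a survey of 6. They were chosen from 164633 genes by their counts: at least 10 normalised counts per 1000000 in both flower and stem, the lower of these at least 4 times the highest of leaf, nodules, roots and seedpod, and flower and stem less than 10-fold apart. The levels below are therefore a description of genes picked for this pattern, and no test stands behind them. The plants were of the alfalfa genotype RegenSY27x and are described without any mutation or treatment, although the series is named for pho2 mutants. Growth was under a 16 hour photoperiod, at 22 °C in the light and 18 °C in the dark. The growth text gives an age of 8 weeks, while the stage label carries the number 20 in an unclear unit. The groups were flower (titled as flower bud), stem, leaf, nodules, roots and seedpod, and 3 replicates of each were harvested and their RNA was pooled into 1 library per tissue. No tissue thus had a replicate library, and intervals, all of 95%, cover counting error only. In such bulk samples, fewer cells of a type and less RNA per cell cannot be told apart.

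A flower bud and a stem are both parts of the shoot. A stem carries water and sugars through xylem and phloem, and it holds the nodes and buds from which flowering branches arise. A flower bud encloses sepals, petals, stamens and carpels that are still growing, and its stalk and floral organs also contain epidermis and vascular strands. Alfalfa is tetraploid, so a locus can be present in several near-identical copies. The authors' annotation lists 4 haplotypes of each of 8 chromosomes separately, written here as chromosome 7.1 to 7.4, for example. Apart from 1 row named for PHO2, the identifiers come without gene names, and none of them matched a RefSeq table of 63463 genes of another alfalfa assembly. No function is therefore given for any of the 65 genes, and the tissue labels were not checked against marker genes. Genes are described by position, in the authors' coordinates, and the sources used here do not give their genome build.

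The libraries held between 8568581 and 9883512 counts. Levels are TMM CPM, counts per 1000000 after scaling of each library by the trimmed mean of M-values. Set against plain library totals, this scaling moved log2 values by -0.16 in flower, -0.24 in stem, 0.30 in leaf, 0.27 in nodules, -0.14 in roots and -0.04 in seedpod.

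The 65 genes were 0.0395% of all genes in the table and 0.526% of the 12358 genes that reached 10 TMM CPM in both flower and stem. Together they took 0.987% of the flower counts and 0.488% of the stem counts, against 0.00957% in leaf, 0.00434% in nodules, 0.00813% in roots and 0.0370% in seedpod. Their summed level was 8837 TMM CPM in flower (8779 to 8895) and 4139 in stem (4099.6 to 4178), against 118 in leaf, 52.4 in nodules, 73.9 in roots and 361 in seedpod. A few genes made up much of the flower sum: the 5 genes highest in flower carried 63.0% of it and 21.3% of the stem sum. Without the 2 highest, the sums were 5511 in flower and 3716 in stem. With DESeq2 size factors both of these genes left the set, and the sums over the remaining 60 genes were 5373 in flower and 3531 in stem.

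Across the 65 genes the flower level had a lowest value of 10.4, a median of 39.8 and a highest value of 1665.5 TMM CPM. The stem level had a lowest value of 10.2, a median of 35.3 and a highest value of 255. The medians in the other libraries were 0.975 in leaf, 0.367 in nodules, 0.637 in roots and 2.56 in seedpod, so seedpod came closest. It was the next highest tissue for 46 of the 65 genes, followed by leaf for 12, roots for 6 and nodules for 1. With library totals in place of TMM these counts were 47, 10, 8 and 0. The next highest tissue was not counted over all genes, so these numbers describe the set only. Many values outside flower and stem rested on almost no counts: 35 genes had at most 3 counts in nodules, 24 in roots, 22 in leaf and 5 in seedpod. No gene was at 0 in all 4.

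**Figure D1:**
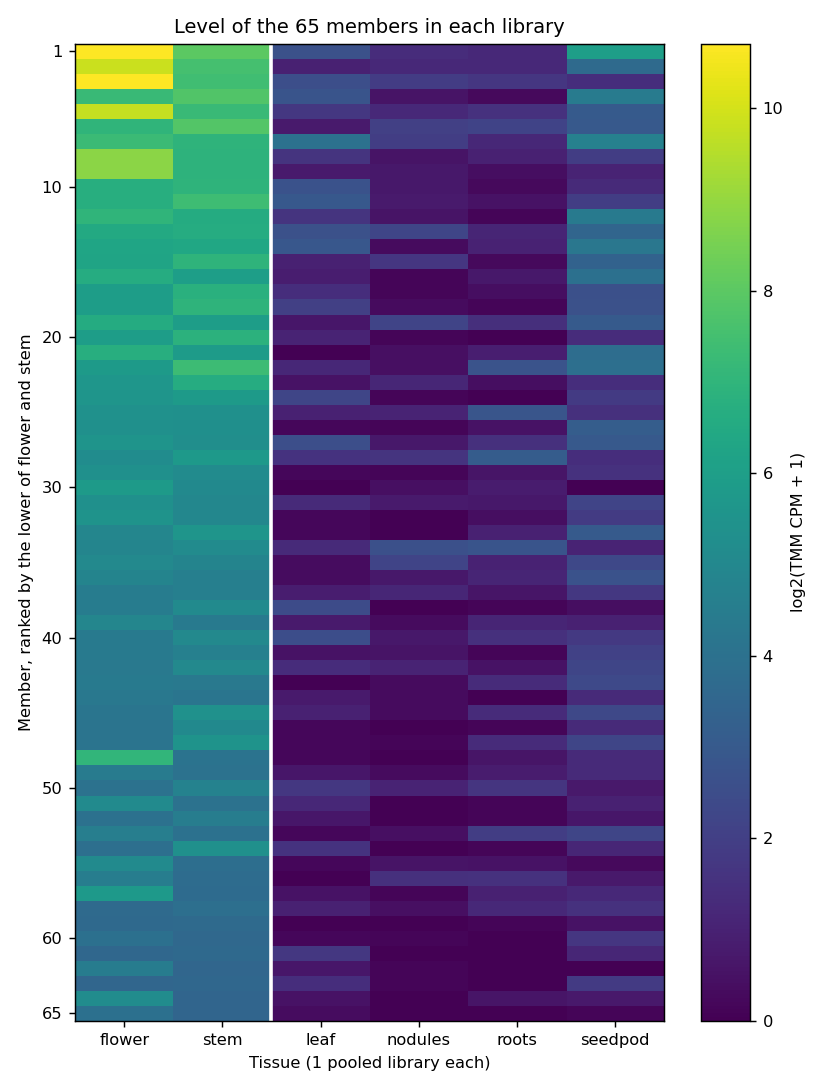
Level of each of the 65 shared genes (rows, ranked by the lower of flower and stem) in the 6 pooled libraries (columns), coloured by log2(TMM CPM + 1). In each row flower and stem are brighter than the other 4 columns, of which seedpod has a median of 2.56 TMM CPM and leaf, nodules and roots have medians under 1.

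The ratio of the lower of flower and stem to the highest of the other 4 had a median of 8.45 and a range of 4.01 to 107. It was 10 or more in 28 genes and 20 or more in 11, and its interval lay at or above 4 in 43. Just inside the limit were a gene of 3 exons on chromosome 7.2 (86321631 to 86323260) at 4.01 (3.30 to 4.91), MS.gene50948 on chromosome 3.3 at 4.02 (3.67 to 4.41) and a gene of 10 exons on chromosome 2.1 (15907199 to 15928637) at 4.07 (2.57 to 6.70). Just outside were genes on chromosome 3.4 (66145081 to 66147205) at 3.92 (3.44 to 4.47), on chromosome 4.4 (6002725 to 6004278) at 3.83 (3.03 to 4.88) and on chromosome 5.1 (56021336 to 56023284) at 3.72 (2.82 to 4.99). The edge of the set is thus not resolved by counting. Seedpod sets much of it. In 19 of the 28 genes with a ratio between 3 and 4, seedpod was the highest of the 4, and with the seedpod library left out 593 genes met the rule. With roots left out the number was 98.

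Applied to each of the 15 pairs of tissues, the same rule gave most genes for nodules and roots, 831, and for leaf and nodules, 250. Flower and stem had 65 genes, fewer than flower and seedpod with 130 (0.0790% of all genes) and seedpod and stem with 117 (0.0711%). Of the other pairs with flower or stem, roots and stem had 43, nodules and stem 20, leaf and stem 14, flower and leaf 12, flower and roots 12, and flower and nodules 11. The limit of 10-fold between the pair removed no gene from flower and stem.

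**Figure D2:**
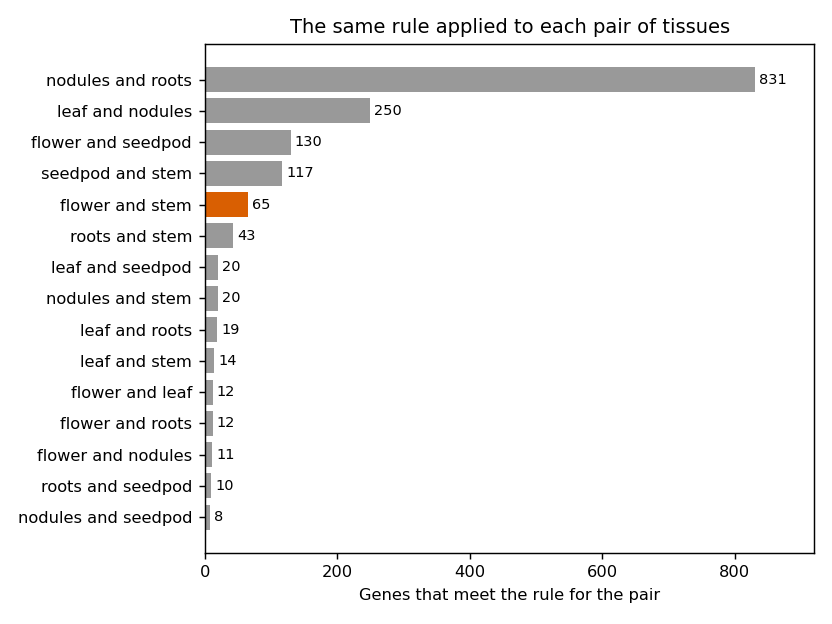
Number of genes (horizontal axis) that meet the same rule of size for each of the 15 pairs of tissues, with flower and stem in orange. The flower and stem bar reaches 65, below flower and seedpod at 130 and seedpod and stem at 117.

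Within the set, flower was above stem in 34 genes and stem above flower in 31. Over the 12358 genes reaching 10 TMM CPM in both, flower was above stem in 48.9% and stem above flower in 51.1%, and the median ratio of flower to stem was 1.03 in the set and 0.990 over those genes. The interval of the ratio lay above 1 in 26 of the 65 genes, below 1 in 24 and spanned 1 in 15. In 47 genes the levels were within 2-fold of each other. No share over the 12358 genes is given for this count or for the counts by interval. The larger gaps were on the flower side. Flower was at least 3 times stem in 9 genes and at least 5 times stem in 4, whereas no gene had stem at 3 times flower or more. Of the 12358 genes, flower was at least 3 times stem in 2.57% and at least 5 times in 1.29%, and stem was at least 3 times flower in 3.53% and at least 5 times in 1.30%. Of the 9 genes, 5 belong to 1 group of short genes on chromosome 4, as do 2 of the 4.

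**Figure D3:**
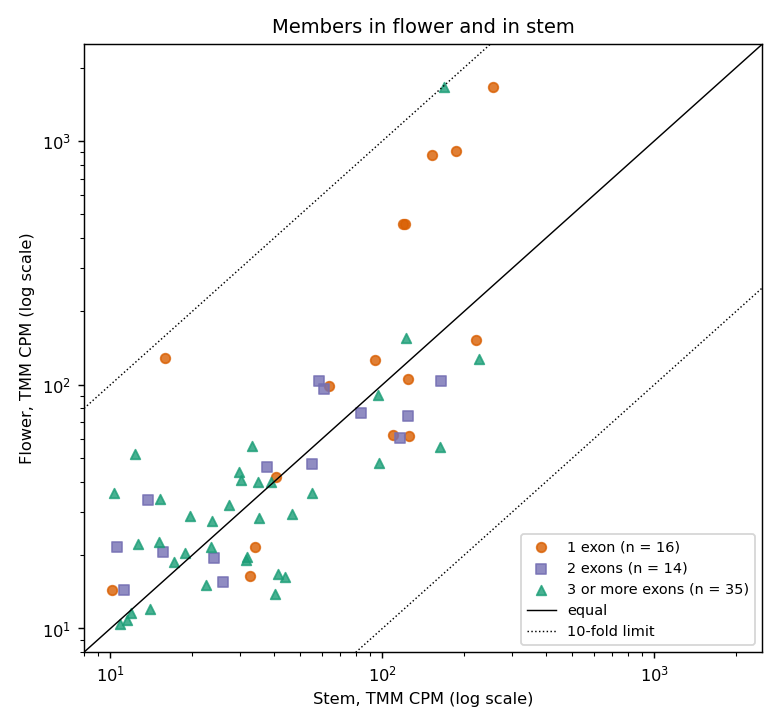
Flower level (vertical axis) against stem level (horizontal axis) of the 65 shared genes, in TMM CPM on log scales, with exon number shown by symbol, the solid line at equal levels and dotted lines at the 10-fold limits of the rule. Points lie on both sides of the solid line, and the 6 genes above 450 TMM CPM in flower, 5 of them of 1 exon, all lie on the flower side.

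Levels of different genes were compared per 1000 nucleotides of coding length. On that scale the flower level ran from 7.36 to 4326 TMM CPM, with a median of 37.5, and the stem level from 5.49 to 663, with a median of 43.4. The top of both ranges was MS.gene50948, a single-exon gene of 384 nucleotides on chromosome 3.3 (13601271 to 13601654). Its level was 1661.1 TMM CPM in flower (1636 to 1686.4) and 255 in stem (245 to 265), against 5.29 in leaf, 1.59 in nodules, 1.38 in roots and 63.3 in seedpod. Flower was 6.52 times stem (6.26 to 6.80), and stem was 4.02 times seedpod. With DESeq2 size factors the last ratio was 3.94, and the gene left the set.

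MS.gene99916, the other gene named for its level among those higher in flower, has 1 exon of 414 nucleotides on chromosome 4.2 (57430970 to 57431383). It had 909 TMM CPM in flower (891 to 928) and 187 in stem (179 to 195), against 0.975 in leaf, 1.34 in nodules, 1.38 in roots and 11.8 in seedpod. Here both tissues stood well clear of the rest, with stem at 15.8 times seedpod (13.0 to 19.4).

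Among genes higher in stem, MS.gene025210 has 1 exon of 633 nucleotides on chromosome 2.2 (46231774 to 46232406). It had 153 TMM CPM in flower (146 to 161) and 221 in stem (212 to 230.4), against 5.85 in leaf, 0.489 in nodules, 0.212 in roots and 21.1 in seedpod. MS.gene048564 has 6 exons and 960 nucleotides on chromosome 3.3 (53213233 to 53219831). It had 127 in flower (120.3 to 134) and 227 in stem (218 to 237), against 0.696 in leaf, 3.06 in nodules, 3.39 in roots and 6.91 in seedpod. Stem was 1.44 times flower in the first of these (1.35 to 1.54) and 1.79 times in the second (1.67 to 1.92), so the lead of stem exceeded counting error in both.

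The largest ratio of flower to stem was 9.91 (9.43 to 10.4), in a gene of 5 exons and 1089 nucleotides on chromosome 7.4 (1699863 to 1702818). It had 1665.5 TMM CPM in flower and 168 in stem, against 5.01 in leaf, 2.69 in nodules, 2.23 in roots and 1.67 in seedpod. Its ratio lies at the 10-fold limit of the rule, and with DESeq2 size factors it was 10.2, so that the gene left the set. At the other end, stem was 2.94 times flower (2.67 to 3.24) in the 3-exon gene at 86321631 on chromosome 7.2, at 55.4 TMM CPM in flower and 163 in stem. A 4-exon gene on chromosome 2.1 (64810200 to 64815961) had 13.9 in flower and 40.3 in stem, a stem to flower ratio of 2.90 (2.39 to 3.54).

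A group of short single-exon genes on chromosome 4 carried much of the flower signal. Between 54 and 59 Mb, 5 of the shared genes have 1 exon of 393 to 420 nucleotides. On chromosome 4.1 (54781485 to 54781904) the gene had 875 TMM CPM in flower and 153 in stem, and at most 7.13 elsewhere. On chromosome 4.2, MS.gene99916 is joined by a gene (57219466 to 57219882) with 456 in flower and 119 in stem. That gene had 0.696 in leaf, 0.611 in nodules, 0.318 in roots and 1.11 in seedpod, and its ratio over the other tissues, 107 (58.0 to 224), was the largest of the 65. On chromosome 4.3 one gene (54817906 to 54818298) had 455 in flower and 121 in stem, and the next (54947325 to 54947744) had 129 in flower and 15.9 in stem. In all 5 flower was 3.77 to 8.11 times stem, and stem was at least 11.0 times the highest of leaf, nodules, roots and seedpod. After the ratio of 107, the next largest among the 65 genes were 44.5 (21.4 to 111) on chromosome 7.4 (3047179), 41.7 (28.3 to 64.02) on 4.3 (54817906), 38.9 (23.0 to 71.6) on 8.2 (61796182) and 36.5 (9.87 to 306) on 3.2 (11654268). The last rests on 2 counts in leaf.

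The annotation holds 15 further single-exon genes of 390 to 420 nucleotides between 54 and 59 Mb of chromosome 4, a window and length range chosen after the values were seen. Of these, 10 had no count in flower or stem. One on chromosome 4.1 (54663975 to 54664391) repeated the shape at a low level, with 8.94 TMM CPM in flower and 1.92 in stem and no count in the other 4 libraries. The remaining 4 had at most 2.19 TMM CPM in flower and 1.73 in stem. On chromosome 4.4 none of the 7 such genes exceeded 1.79 in flower. The sequences of these genes were not compared, so they were grouped by length, exon number and position only.

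Genes alike in structure and position recurred on several haplotypes. When genes on different haplotypes of one chromosome number were joined by equal exon number, equal first exon (in genes of more than 1 exon), coding lengths within 20% and starts within 5 Mb, the 65 genes formed 42 loci. Of these, 12 had members on more than 1 haplotype and held 35 genes: 5 loci on 2 haplotypes, 5 on 3 and 2 on all 4. In 10 of the 12 loci, all members lay on the same side of the balance between flower and stem. The 5 Mb limit left apart a 639-nucleotide gene of chromosome 3 and a 15-exon gene of chromosome 4, each with copies on both sides. Joined by identical exon chain (within 5 Mb only for genes of 1 or 2 exons), 9 of 12 sets with several members lay on 1 side. The same shares over copies of all genes were not computed, so neither count is set against a background. The sources used here do not give how reads matching several copies were counted, so copies are not independent observations.

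A locus on all 4 haplotypes was the single-exon gene of 633 nucleotides on chromosome 2, to which MS.gene025210 belongs. The other copies had 61.5 TMM CPM in flower and 124.9 in stem on chromosome 2.1 (49616118 to 49616750), 16.4 in flower and 32.7 in stem on chromosome 2.3 (48305531 to 48306163), and 62.0 in flower and 109 in stem on chromosome 2.4 (48613079 to 48613711). Stem was above flower in each of the 4 shared copies, by 1.44 to 2.03 times, and the flower level ran from 16.4 on 2.3 to 153 on 2.2. A further gene of this length lies nearby on 2.1 (49640321), 2.2 (46173283) and 2.3 (48291571), outside the set. These had at most 0.795 in flower and 0.288 in stem. Flower was above stem on 2.2 and 2.3, and seedpod was highest on 2.2, at 1.23, all on few counts. The other such locus has 2 exons on chromosome 8, the first of 112 nucleotides in each copy. Its copies had 74.1 in flower and 124 in stem on chromosome 8.1 (65622486 to 65623790), 60.7 in flower and 116 in stem on 8.2 (61796182 to 61797486), 103 in flower and 165 in stem on 8.3 (58716224 to 58717553), and 47.3 in flower and 55.2 in stem on 8.4 (60296884 to 60298210). Stem again led in all 4 copies. Coding length was 540, 540, 606 and 558 nucleotides in that order, the difference lying in the second exon.

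On chromosome 7 a 3-exon gene of 729 nucleotides was high in stem. It had 16.7 TMM CPM in flower and 41.3 in stem on chromosome 7.1 (84467440 to 84468976), 55.4 in flower and 163 in stem on 7.2, and 16.3 in flower and 43.8 in stem on 7.3 (87043128 to 87044758). Seedpod was next highest in each copy, at 4.01 on 7.1, 13.8 on 7.2 and 3.68 on 7.3. The copy on chromosome 7.4 (88261675 to 88263346) was the strongest, with 165 in flower and 503 in stem, but its 52.8 in seedpod left a ratio of 3.13 (2.82 to 3.47), below the limit of 4. Stem was 2.47 to 3.04 times flower over the 4 copies.

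Another 3-exon gene of chromosome 7, of 1332 nucleotides, had flower to stem ratios between 1.02 and 1.17. The copy on chromosome 7.1 (34231699 to 34235404) reached 39.9 TMM CPM in flower and 38.98 in stem. The copy on 7.2 (36237187 to 36241725) had 20.4 in flower and 18.8 in stem, and that on 7.3 (37616213 to 37619758) had 27.6 in flower and 23.6 in stem. All 3 intervals of the flower to stem ratio spanned 1, and seedpod was next highest in each. On chromosome 7.2, a 2-exon gene of 495 nucleotides (36245837 to 36246578) lies 4111 bases beyond the 1332-nucleotide gene and also belongs to the set, at 14.4 in flower and 11.2 in stem.

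Copies of the single-exon gene of 384 nucleotides on chromosome 3 differed in their balance. MS.gene50948 on chromosome 3.3 was 6.52 times higher in flower. The copy on chromosome 3.1 (12421405 to 12421788) reached 105 TMM CPM in flower and 124 in stem, a flower to stem ratio of 0.849 (0.782 to 0.922). The copy on 3.2 (11654268 to 11654651) had 14.4 in flower and 10.2 in stem, a ratio of 1.42 (1.09 to 1.84). The intervals of the 3 ratios do not overlap, and the copy with the highest flower level was the one with seedpod at 63.3, against 1.45 on 3.1 and 0.111 on 3.2. A further single-exon gene of 384 nucleotides on 3.1 (10305564) had no count in any library. These copies were matched by length and position only. An 8-exon gene of chromosome 5, whose copies differ in length in the last 2 exons, had flower to stem ratios between 0.938 and 1.35. It had 18.8 in flower and 17.1 in stem on 5.1 (25717330 to 25720278), 40.6 in flower and 30.1 in stem on 5.2 (25123705 to 25126642), and 90.5 in flower and 96.5 in stem on 5.3 (23808763 to 23811859). The interval of the ratio spanned 1 on 5.1 and 5.3 and lay above 1 on 5.2 (1.16 to 1.57).

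The loci on 2 haplotypes each lay on 1 side. Flower was above stem in the single-exon gene of 1554 nucleotides on chromosomes 4.2 (6308027 to 6309580) and 4.3 (5849946 to 5851499), by 1.35 times on 4.2 and 1.55 times on 4.3. The 1554-nucleotide gene on 4.4 (6002725 to 6004278) is the one just outside the limit, at a ratio of 3.83. Flower was also above stem in the 2-exon gene of 1233 nucleotides, by 1.56 times on 7.3 (56536403 to 56537821) and 1.33 times on 7.4 (56245166 to 56246584). Stem was above flower in the 8-exon gene of 1266 nucleotides, by 1.53 times on 7.2 (7350747 to 7353836) and 1.24 times on 7.3 (7309620 to 7312696). In that gene roots, not seedpod, were next highest, at 7.74 on 7.2 and 5.94 on 7.3. Stem was likewise above flower in the 5-exon gene of 1086 nucleotides near the start of chromosome 1, by 1.49 times on 1.1 (308108 to 312473) and 1.65 times on 1.4 (133371 to 137926). The fifth such locus, of 3 exons on chromosome 6, had stem at 1.62 times flower on 6.2 (6333446 to 6335297). On 6.3 (6625397 to 6627272) stem was 1.06 times flower, with an interval that spanned 1 (0.814 to 1.39). Leaf was next highest in both copies.

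Copies outside the set were then examined. Of the 35 shared genes with at least 3 exons, 23 have another annotated gene with the identical chain of exon lengths on the same chromosome number, and 26 such copies did not meet the rule. Of the 26, 5 missed the level alone, 6 missed the 4-fold ratio alone, 3 missed both, and 12 were marked as missing all 3 parts of the rule. For copies with no count in flower or stem, the 10-fold limit was marked as missed by default. At 1 TMM CPM or more in both flower and stem there were 12 copies, and in all 12 both tissues were above the other 4. The same held for 12.2% of the 36582 genes of that level. The ratio was 4 or more in 5 of the 12 copies, against 0.478% of those genes. These copies share exon chains with genes picked for this pattern, and how reads matching several copies were counted is not known. The 2 comparisons are therefore not independent of that choice. The remaining 14 copies were under 1 TMM CPM in flower or stem. Among them, a copy on chromosome 7.4 (3052494 to 3054197) fell just under this cut, at 0.960 in stem. It had 94.4 in flower and 186 in roots, so it did not show the pattern.

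A 10-exon gene of 1533 nucleotides on chromosome 4 was higher in flower than in stem in each expressed copy. The shared gene on chromosome 4.3 (9883806 to 9887188) reached 36.1 TMM CPM in flower and 10.3 in stem. The copy on 4.4 (10116170 to 10119884) had 123 in flower and 39.2 in stem, and the copy on 4.2 (10568919 to 10572303) had 12.8 in flower and 3.07 in stem. Flower was 3.51 times stem on 4.3, 3.14 times on 4.4 and 4.17 times on 4.2. Against seedpod, the stem ratio was 3.59 on 4.4 and 3.45 on 4.2, under the limit of 4. The 3-exon gene of 639 nucleotides on chromosome 3 has 8 annotated copies, of which 3 are shared genes. These had 44.0 in flower and 29.7 in stem on 3.1 (54045613 to 54049298), 39.8 in flower and 34.8 in stem on 3.2 (60196637 to 60198948), and 11.5 in flower and 11.9 in stem on 3.4 (66799908 to 66802156). Over all 8 copies the sum was 128 in flower and 85.2 in stem, against 0.279 in leaf, 0.733 in nodules, 1.49 in roots and 5.57 in seedpod. The 3 shared genes carry most of the flower and stem sums. Outside the set, the copy on 3.4 (66348182) had 15.1 in flower and 4.42 in stem. The copy on 3.2 (60935549) had 7.65 in flower and 3.84 in stem, and one on 3.3 (58949356) had 8.54 and 0.480. The remaining copies, on 3.1 and 3.3, had at most 1.69 in flower and no count in stem.

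Other genes of the set stood nearly alone among their copies. At the start of chromosome 7.4 lie 2 shared genes of 5 exons each, 5369 bases apart on the same strand. The gene of 1116 nucleotides (1691923 to 1694493) reached 47.8 TMM CPM in flower and 97.4 in stem, so stem was 2.04 times flower (1.83 to 2.28). Its neighbour is the 1089-nucleotide gene described above, where flower was 9.91 times stem. Each has a copy of identical exon chain on chromosomes 7.1, 7.2 and 7.3. For the 1089-nucleotide gene these copies had 9, 2 and 3 counts in flower, on 7.1, 7.2 and 7.3, against 16769 on 7.4, and no count in stem. For the 1116-nucleotide gene the copy on 7.1 had 1.59 in flower and 5.18 in stem, and the other 2 copies had no count in flower and at most 3 in stem. How the counting divided reads among these copies was not tested.

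Further along chromosome 7.4, a 7-exon gene of 525 nucleotides (3047179 to 3048882) reached 56.3 TMM CPM in flower and 33.0 in stem, against 0.367 in nodules, 0.743 in roots and no count in leaf and seedpod. A gene with the same exon chain (3052494 to 3054197) lies close by on the opposite strand. It had 94.4 in flower but only 0.960 in stem, with 186 in roots. Both were expressed in flower, and they parted in stem and roots. The copy on chromosome 7.1 (2391795 to 2393498) had no count in any library.

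For 2 further genes, some copies outside the set missed the ratio of 4 while high in flower and stem. MS.gene048564 has copies of the same chain with 136 TMM CPM in flower and 158 in stem on chromosome 3.3 (53359721 to 53364460), and 333 in flower and 388 in stem on 3.4 (60855849 to 60860618). In seedpod the copy on 3.3 had 46.2 and that on 3.4 had 163, against 6.91 for MS.gene048564, so their ratios were 2.94 on 3.3 and 2.04 on 3.4. This chain has 6 annotated copies on 4 haplotypes, with sums of 597 in flower and 773 in stem. MS.gene048564 and the copies just given hold nearly all of both sums, so the remaining copies had little in either tissue. The 3-exon gene of 1110 nucleotides on chromosome 4.2 (57753425 to 57758433) had 156 in flower and 122 in stem, against 14.9 in leaf and 25.0 in seedpod. Its copies on 4.3 (55091295 to 55096393) and 4.4 (58601639 to 58606550) had ratios over the other tissues of 2.26 on 4.3 and 3.49 on 4.4. Leaf was the next highest tissue in both, at 10.4 on 4.3 and 16.3 on 4.4. Flower was above stem in all 3 copies.

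**Figure D4:**
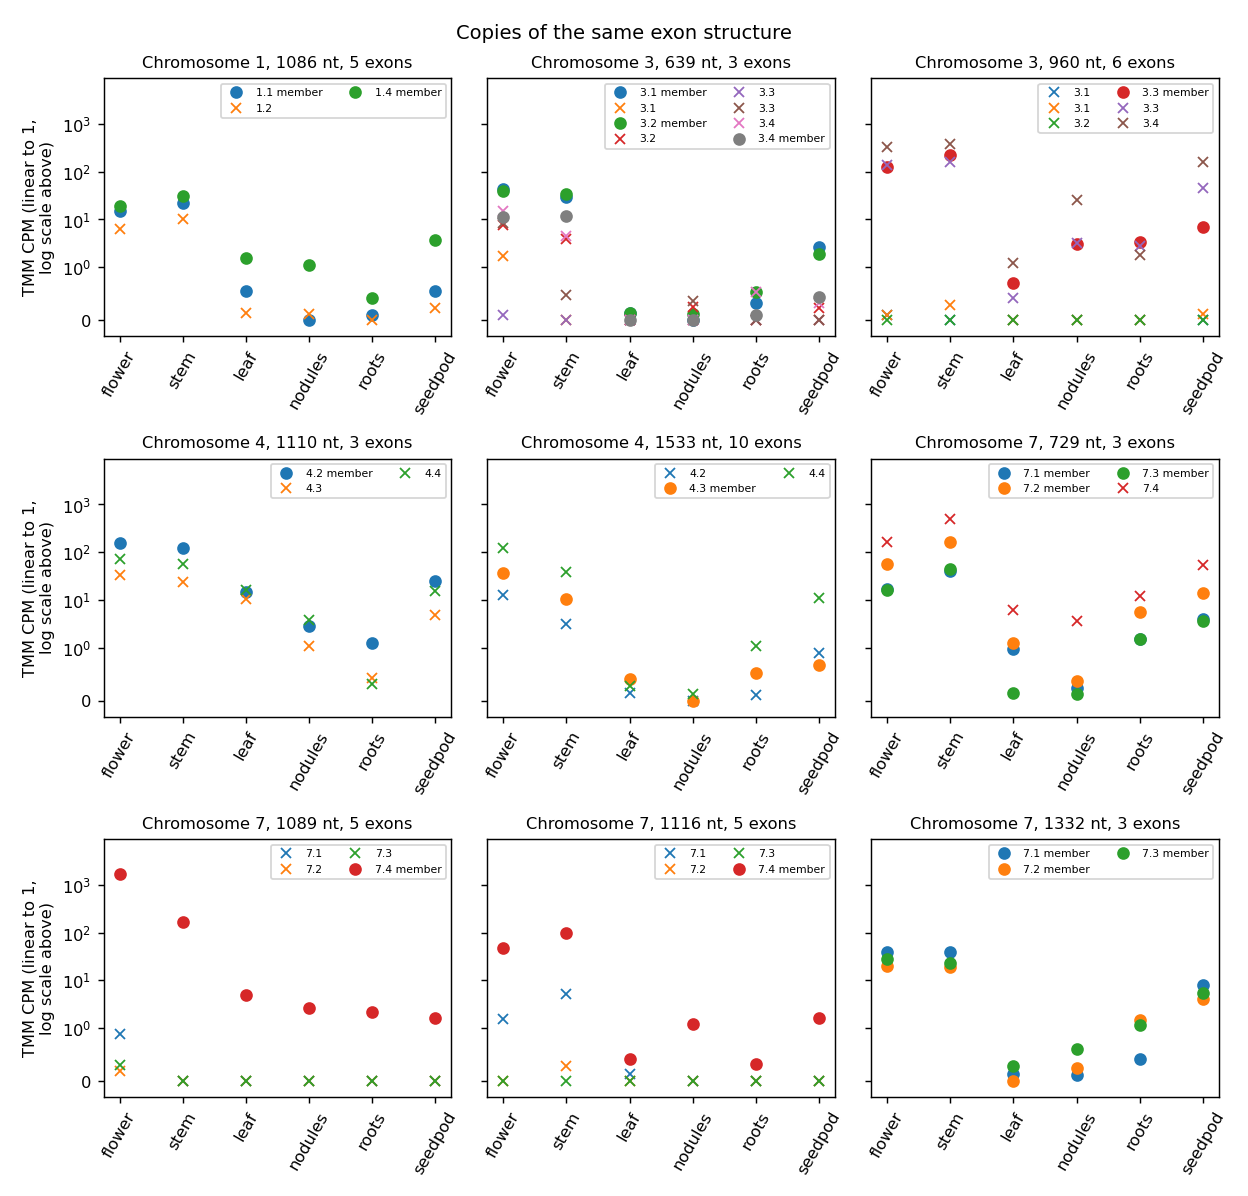
Level in TMM CPM (linear to 1, log scale above) in the 6 libraries of every annotated copy of the 9 structures of at least 3 exons with copies on at least 3 haplotypes, with circles for shared genes, crosses for other copies and colours for the copies of a panel. The 729- and 1332-nucleotide genes are high in flower and stem on each haplotype drawn, whereas the 1089- and 1116-nucleotide genes exceed 10 TMM CPM on chromosome 7.4 only.

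The shared genes had fewer exons and shorter coding sequences than expressed genes at large, features the rule did not use. A single exon was annotated in 16 of the 65 (24.6%), against 15.9% of the 28247 genes that reached 10 TMM CPM in some library and 11.9% of those at that level in both flower and stem. In the set shared by flower and seedpod 20.8% had a single exon, and in the set shared by seedpod and stem 22.2%, close to the 24.6% here, with a median of 4 exons in each. The median exon number of the 65 was 3, against 5 in the first of these backgrounds and 6 in the second. The median coding length was 957 nucleotides, against 1215 in the first and 1296 in the second. Of the 65 genes, 28 (43.1%) were shorter than 750 nucleotides, against 23.5% in the first and 22.1% in the second. In the set shared by flower and seedpod 26.2% were this short, and in the set shared by seedpod and stem 15.4%. Some smaller pairs had a shorter median coding length than the 957 here: nodules and stem 867, leaf and stem 871.5, and leaf and roots 936. Roots and stem had a larger share of single-exon genes, 32.6%. Genes higher in flower had a median of 1118 nucleotides and those higher in stem 729, although 7 of the 8 genes under 450 nucleotides were higher in flower. Copies of a locus enter these figures together, and none was tested.

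**Figure D5:**
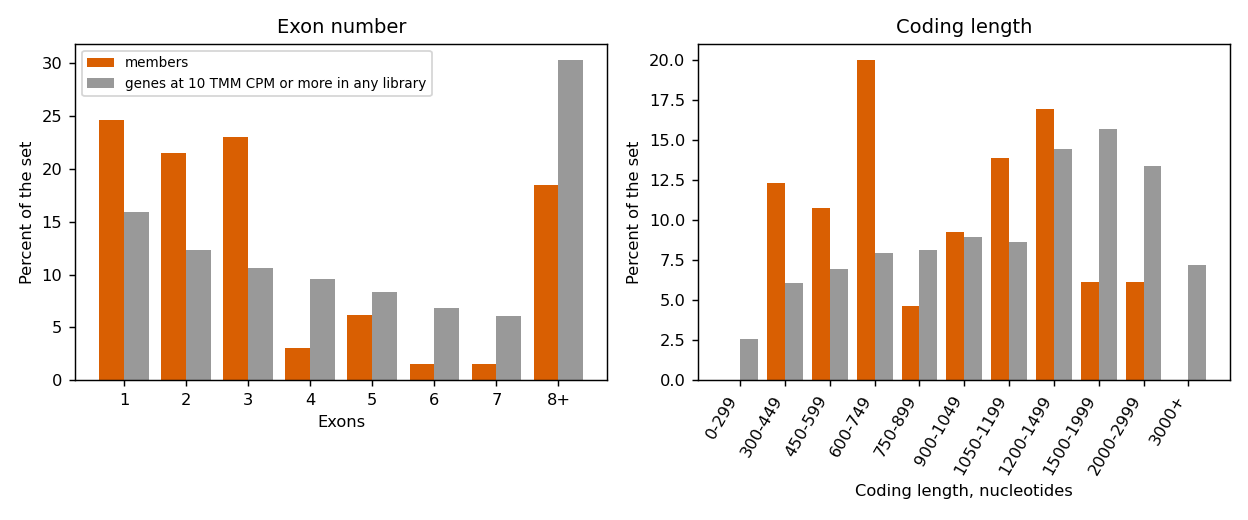
Percent of the 65 shared genes (orange) and of the 28247 genes that reached 10 TMM CPM in some library (grey) by exon number (left) and by coding length in nucleotides (right; class widths differ). Of the shared genes, 24.6% have 1 exon, against 15.9%.

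The 65 genes lie on 28 of the 32 chromosome sequences. Chromosome 7 holds 17 of them (26.2%), against 12.2% of the genes expressed in any library, and chromosome 3 holds 13 (20.0%), against 13.0%. Haplotypes 1 to 4 hold 14, 16, 19 and 16. Shared genes lay next to each other in 2 pairs, both on chromosome 7. Of the 126 genes next to a shared gene that are not in the set themselves, 38 were at 1 TMM CPM or more in both flower and stem. In 6 of these 38 both tissues were above the other 4, against 12.2% of all genes at that level. In 1 of the 38 the ratio reached 4, against 0.478% of all genes at that level. No shared gene overlaps another annotated gene.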

How the data were processed

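RNA from 6 tissues, 1 pooled library each, was measured as raw counts per gene. The authors deposited these counts in 1 table with exon positions, strand and summed exon length. Per the submitters' processing notes, Trimmomatic, FastQC, featureCounts and edgeR were used, with no version stated. Not given in the sources used here: aligner, genome build, strand setting and treatment of multiply matching reads. The summed exon length was a multiple of 3 for 95.6% of genes, hence coding length.

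TMM factors over all genes and 6 libraries came from edgeR 4.0.16 in R 4.3.3, with DESeq2 1.42.0 size factors and other scalings as alternatives. A floor of 3 counts applied where the other 4 tissues were at 0, which no shared gene needed. Intervals are exact Poisson (levels) and exact conditional binomial (ratios), and cover counting error alone. Without molecular identifiers PCR copies count as separate reads, so the intervals may be too narrow even for that error. With 1 library per tissue no test was run. Named genes were those highest in the lower of flower and stem (identifiers for 2 on each side), extreme in either ratio, nearest the limit, or in sets of at least 3 copies; other genes named among copies were chosen after their values were seen, as were the loci. The shared genes and these comparisons were chosen with earlier results of these data known. The rule was tested on simulated data. Other software was matplotlib 3.10.9, scipy 1.17.1, pandas 2.3.3, numpy 2.4.6 and Python 3.11.15.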

Additional observations from a re-analysis of the deposited data

How the results depend on the processing

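The number of shared genes was 65, and 73 with library totals, 60 with DESeq2 size factors and 60 with upper-quartile factors, of which 65, 60 and 59 were among the 65. It was 65 with TMM over genes of at least 10 counts, with a floor of 1 count and with no limit between flower and stem, 56 with less than 3-fold between them, 87 at 5 TMM CPM or more and 93 at 3 times or more. It fell to 38 at 20 TMM CPM or more, to 42 at 6 times or more and to 43 with the lower end of the interval at 4 or more, as stricter limits must. With 1 library left out, it was 76 without leaf, 71 without nodules, 98 without roots and 593 without seedpod, since fewer libraries then bound the ratio. Summing copies of at least 3 exons left 53 units, and counting loci (added after the data were seen) left 42. The summed flower level of 8837 TMM CPM was 10402 with library totals, 5373 with DESeq2 size factors and 7113 with upper-quartile factors, and 5511 without the 2 genes highest in flower (added after the data were seen). The summed stem level of 4139 was 5302, 3531 and 3865 under the same 3 scalings. Both genes highest in flower left the set with DESeq2 size factors, one at a ratio of 3.94 over seedpod and the other at 10.2 between flower and stem. Of 58 recomputed ratios of 29 named genes, 56 stayed within their counting intervals. No paired analysis was possible because each tissue has 1 library. Depth limits the ratios of genes with few counts outside flower and stem.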
